A study of Mus musculus with 32 samples.

Results

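Conventional CD4 T cells (Tconv) of the spleen were compared between mice given carbon tetrachloride (CCl4) and control mice, in 8 of the 32 RNA sequencing libraries of the series, 5 CCl4 and 3 control. The libraries were chosen by their labels alone. All came from male C57BL/6 mice carrying the Foxp3GFP allele, a reporter that marks regulatory T cells (Treg), and Tconv were the TCRb+CD4+ cells sorted as Foxp3 negative. CCl4 is converted by liver enzymes to a radical that injures hepatocytes, and repeated dosing is a standard mouse model of liver fibrosis. The age of the mice, the CCl4 dose, route and schedule, and any vehicle given to the controls are not stated in the labels. Nor is it stated whether each library stands for 1 animal, so p-values measure the spread between these samples, which may be technical. The same 5 and 3 design exists for spleen Treg and liver Tconv, whose responses are compared with that of spleen Tconv below. All 32 libraries entered 1 fit, so the other populations also shaped its estimate of the spread between libraries.

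The libraries held 27067104 to 60777997 estimated counts. Levels are given as CPM, the count of a gene relative to the normalized size of its library, which is not divided by gene length. The label of the cells held: the 11 genes of the CD4 T identity list (receptor chains, Cd4, Lck and others) summed to 9967 to 10823 CPM in CCl4 and 9737 to 10362 CPM in control libraries. Cd4 itself was at 938 to 1107 CPM in CCl4 and 926 to 996 CPM in control libraries, and Cd3e at 812 to 1061 CPM and 735 to 836 CPM. Foxp3, the transcription factor that the sort selected against, was at 1.35 to 2.39 CPM in CCl4 and 2.56 to 3.43 CPM in control libraries, and its difference was not called (log2 fold change -0.68, SE 0.19, edgeR adjusted p = 0.0664). Areg, which encodes the growth factor amphiregulin named in the title of the series, stayed near the floor, at 0.134, 0.438, 0.896, 1.02 and 0.364 CPM in CCl4 libraries 1 to 5 and at 0.531, 0.108 and 0 CPM in controls 1 to 3. The groups overlapped, and a two-sided exact permutation test over all 56 ways to assign the labels gave p = 0.232 for Areg, where 0.0179 is the smallest p they allow.

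Immediate early genes are transcribed within minutes of a stimulus, without new protein synthesis, from transcription factors that already wait in the cell. In T cells they follow engagement of the antigen receptor, and they also follow stress and the handling of tissue and cells. Many encode parts of the AP-1 transcription factor (Fos and Jun families), zinc finger factors (Egr and Klf families), the orphan receptors of the Nr4a family, and proteins that switch the signal off again, such as the phosphatase Dusp1 and the RNA-binding protein Zfp36. Their transcripts decay quickly, so their level at lysis reflects recent events.

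For these genes the widest gap among the 8 libraries ran within the controls and not between the groups. Fos was at 725, 735, 711, 821 and 892 CPM in CCl4 libraries 1 to 5 and at 804, 26.4 and 19.4 CPM in controls 1, 2 and 3. Control 1 thus lay inside the CCl4 range, and controls 2 and 3 lay far under it. Junb, the most abundant of the 12 genes that made up an immediate early score, showed the same order, at 3967 to 5922 CPM in CCl4 libraries and at 5124, 773 and 657 CPM in controls 1, 2 and 3. Dusp1 was at 765 to 912 CPM in CCl4 libraries and at 878, 55.2 and 56.3 CPM in the controls, in the same order. Nr4a1, a receptor-induced gene much used as a reporter of antigen signals, was at 427 to 541 CPM in CCl4 libraries and at 415, 67.4 and 77.0 CPM in the controls. The gap was narrower for Klf6, with 445 to 524 CPM in CCl4 libraries and 464, 212 and 199 CPM in the controls. It was narrowest for Btg2, an inhibitor of proliferation, with 406 to 479 CPM in CCl4 libraries and 456, 392 and 401 CPM in the controls. The score, the mean log2 CPM of the 12 genes, was 8.14, 8.31, 8.13, 8.32 and 8.40 in CCl4 libraries 1 to 5 and 8.30, 5.87 and 6.17 in controls 1 to 3. Since controls 2 and 3 were set apart by these values, the differences among controls are a description and carry no test. Spleen Treg controls of the same numbers showed the same split, with scores of 8.27, 6.25 and 6.01 in controls 1 to 3, whereas the 16 liver libraries lay between 8.76 and 9.74. The cause of the split was not tested, and the labels give no date or batch.

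**Figure D1:**
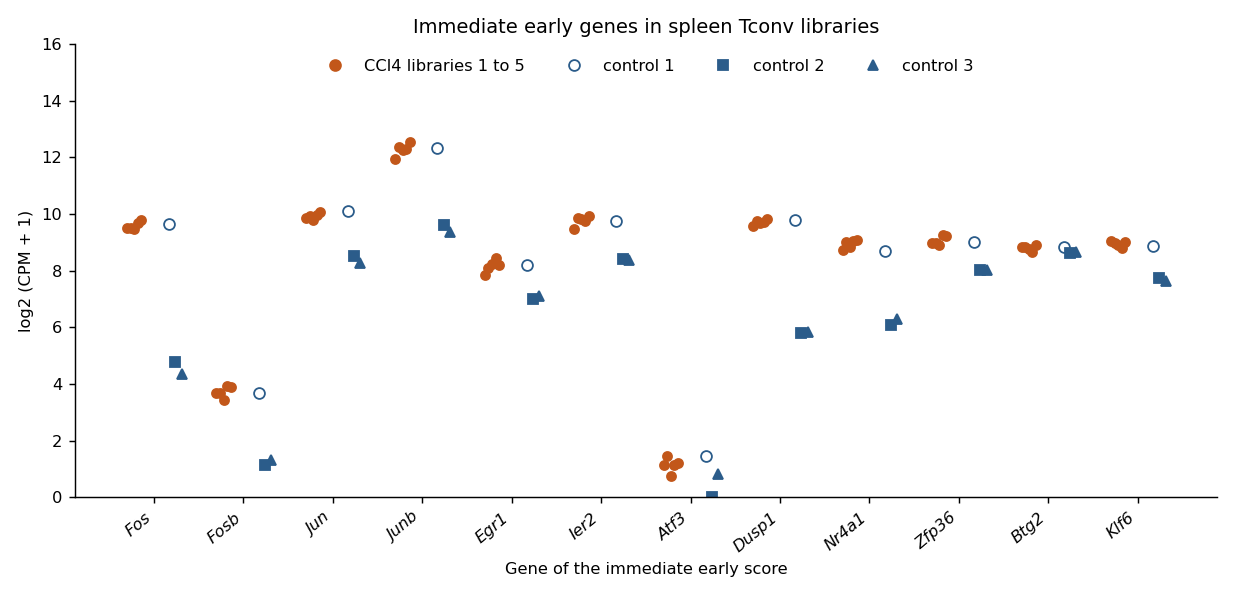
Level of the 12 immediate early score genes on the log2(CPM + 1) scale, with the 5 CCl4 libraries left and the 3 controls right of each gene (1 point per library). For Fos the CCl4 libraries and control 1 lie between 711 and 892 CPM, and controls 2 and 3 lie at 26.4 and 19.4 CPM.

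For reference, the 250 bases before the start of Fos and of 4 other score genes are shown, from the RefSeq promoter table on GRCm38.p6. They lie at chr12:85473640-85473889 on the plus strand (Fos), chr15:101266596-101266845 plus (Nr4a1), chr8:84978749-84978998 minus (Junb), chr4:95052223-95052472 minus (Jun) and chr13:5861239-5861488 plus (Klf6). The 4 are those of the smallest adjusted p among score genes, except Ier2 and Egr1, whose sequences are not used here. Capitals mark TGACG or its reverse complement CGTCA, the core of the cAMP response element (CRE), through which cAMP and calcium signals reach such genes.
Fos: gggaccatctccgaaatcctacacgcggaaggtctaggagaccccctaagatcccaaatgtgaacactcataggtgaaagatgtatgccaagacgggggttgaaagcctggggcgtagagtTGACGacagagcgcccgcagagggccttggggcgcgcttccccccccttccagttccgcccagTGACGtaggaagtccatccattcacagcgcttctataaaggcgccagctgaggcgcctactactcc
Nr4a1: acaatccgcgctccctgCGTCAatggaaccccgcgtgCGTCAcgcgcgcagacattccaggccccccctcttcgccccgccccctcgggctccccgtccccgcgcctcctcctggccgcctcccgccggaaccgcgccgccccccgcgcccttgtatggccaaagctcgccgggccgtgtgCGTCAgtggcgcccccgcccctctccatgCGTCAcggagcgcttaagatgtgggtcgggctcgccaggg
Junb: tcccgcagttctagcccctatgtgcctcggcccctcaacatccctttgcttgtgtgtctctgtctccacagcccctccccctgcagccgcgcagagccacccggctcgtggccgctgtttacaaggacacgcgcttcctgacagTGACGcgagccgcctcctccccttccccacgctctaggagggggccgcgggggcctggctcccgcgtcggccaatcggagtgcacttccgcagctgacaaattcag
Jun: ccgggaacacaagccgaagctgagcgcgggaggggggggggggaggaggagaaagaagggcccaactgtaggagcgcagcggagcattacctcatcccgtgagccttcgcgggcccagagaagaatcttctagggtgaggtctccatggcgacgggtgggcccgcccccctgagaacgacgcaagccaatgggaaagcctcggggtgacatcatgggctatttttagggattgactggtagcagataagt
Klf6: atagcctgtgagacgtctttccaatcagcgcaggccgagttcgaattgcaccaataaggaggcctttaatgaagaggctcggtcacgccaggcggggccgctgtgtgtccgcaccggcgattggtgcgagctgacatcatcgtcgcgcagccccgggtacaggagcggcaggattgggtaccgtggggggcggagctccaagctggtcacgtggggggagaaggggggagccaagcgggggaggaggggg
The core occurs at 2 places before Fos, at 4 before Nr4a1, at 1 before Junb and at none before Jun and Klf6, and 17.8% of the 32851 promoters in the table hold it within the same 250 bases. The match nearest to the start of Fos begins 66 bases before it, and a TATA box (TATAAA), which 12.4% of promoters hold, begins 33 bases before it. The full palindrome TGACGTCA, held by 1.55% of promoters, was found in none of the 5. Nor was an exact CArG box (CC, 6 letters A or T, GG), to which serum response factor binds and which 1.47% hold. Inexact matches and bases beyond these 250 were not searched, so such sites are not excluded. Both strands were searched, and each full CRE would contain the core. These matches describe letters and not binding.

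Tested between the groups, the immediate early genes were mostly not called, and the spread within the controls was as wide as the gap between the groups. Of the 36 genes of the immediate early list, 3 rose, none fell and 33 did not pass the test, where 0.653% of all 17159 genes tested were called higher. The median log2 fold change of the list was 0.81, against 0.00 for all genes tested. With control 1 as the only control the list's median was 0.04, with 21 of 36 above 0. Controls 2 and 3 were set apart by genes of this kind, so this drop is built in. The genes that rose were Csrnp1, Dusp5 and Fosl2. Csrnp1, a nuclear protein induced by several signals, was at 226, 214, 217, 233 and 210.5 CPM in CCl4 libraries and at 176, 45.2 and 46.4 CPM in controls 1 to 3. The groups did not overlap, as the rule by which the gene was named asked. Its log2 fold change was 1.30 (SE 0.29, edgeR adjusted p = 0.0281), while the CCl4 mean lay 0.32 above control 1 on the log2 scale. Dusp5, a nuclear phosphatase of ERK kinases, was at 315 to 368 CPM in CCl4 libraries and at 276, 57.8 and 55.8 CPM in the controls (log2 fold change 1.43, SE 0.34, edgeR adjusted p = 0.0337). Fosl2, an AP-1 subunit, is described with the genes that stood apart from every control. Among the 33 others, Tnfaip3, the ubiquitin-editing brake on NF-kB, was at 924 to 1204 CPM in CCl4 libraries and at 707, 104 and 90.0 CPM in controls (log2 fold change 1.78, edgeR adjusted p = 0.0632). Rgs1, a G protein regulator, was at 111 to 128 CPM in CCl4 libraries and at 97.2, 18.6 and 12.4 CPM in controls (1.49, adjusted p = 0.0530). For Fos itself the log2 fold change was 1.45 with an SE of 0.84 (edgeR adjusted p = 0.4395; exact permutation p = 0.0714), and for Jun 0.71 with an SE of 0.31 (adjusted p = 0.268; exact permutation p = 0.107).

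Across the transcriptome, 112 genes were higher and 71 lower after CCl4 at an edgeR adjusted p under 0.05, which is 0.653% and 0.414% of the genes tested. The groups did not overlap in any library for 90 of the higher and 59 of the lower genes, against 8.82% of all genes tested. Much of this contrast came from controls 2 and 3. The median log2 ratio of the CCl4 mean for the higher genes was 0.64 over the mean of controls 2 and 3 and 0.28 over control 1. For the lower genes it was -0.81 and -0.34. Control 1 lay nearer to the CCl4 mean than to the mean of controls 2 and 3 for 64 of the 112 higher and 43 of the 71 lower genes. It lay inside the CCl4 range or on its far side for 22 and 12 of them. Control 1 lay beyond the CCl4 range in the direction of the change for the other 90 and 59, where 24.8% of all genes tested did so.

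**Figure D2:**
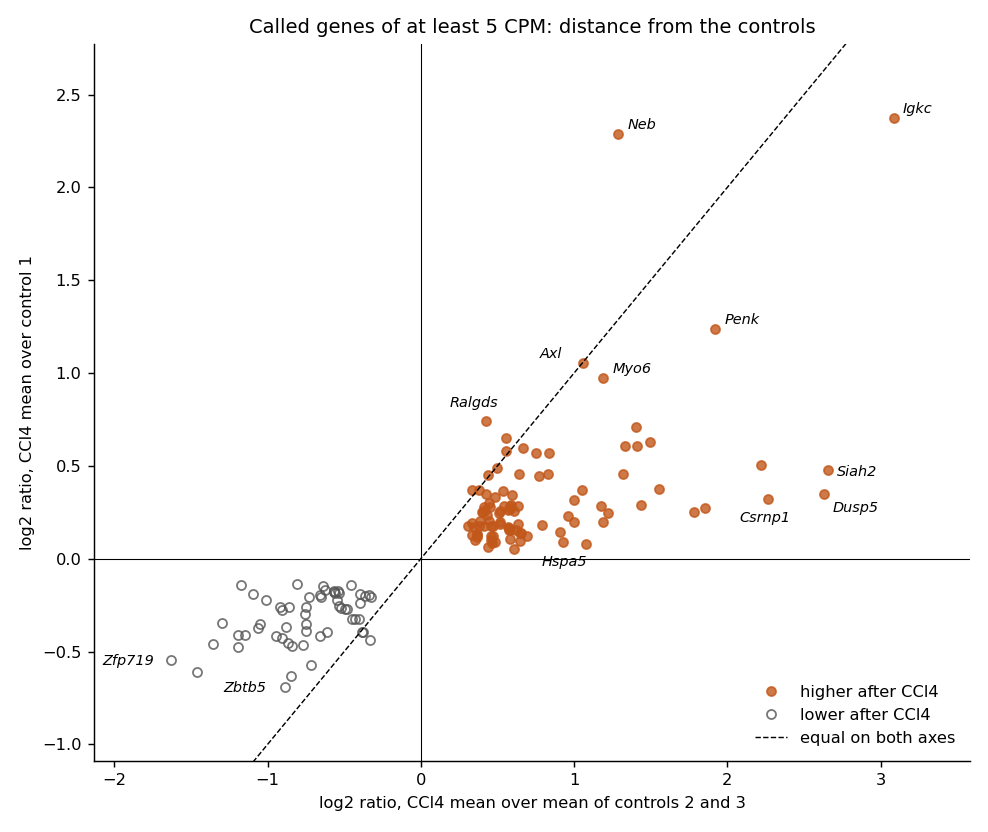
Called genes whose mean reached 5 CPM (96 higher, filled, and 58 lower, open), with the log2 ratio of the CCl4 mean over the mean of controls 2 and 3 on the x axis and over control 1 on the y axis. Most points lie nearer to 0 on the y axis than the dashed line of equal ratios, and a few (Neb, Axl and Ralgds among them) lie on it or beyond it.

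Taking the low immediate early level into account left almost no gene past the threshold. Without controls 2 and 3, edgeR called 2 genes higher and none lower, and 3.86% of 18713 genes had an unadjusted p under 0.05. The 2 genes, both under 2 CPM in every spleen Tconv library, were Ajuba, a LIM-domain scaffold protein, and Rasgef1b, an exchange factor for Ras-family proteins. Ajuba was at 1.31 to 1.82 CPM in CCl4 libraries and at 0.0343, 0.830 and 0.916 CPM in controls 1 to 3, and Rasgef1b at 1.10 to 1.45 CPM and at 0.189, 0.974 and 0.629 CPM. Control 1 was the lowest library for both. With the score as a covariate in the fit of all 32 libraries no gene was called, and 5.96% of genes had an unadjusted p under 0.05. In the fit of the 16 spleen libraries the score left 1 higher and 1 lower (7.93% under 0.05 unadjusted), and in the fit of the 8 libraries alone it left none (4.96%). The higher gene in the 16 libraries was Ccrl2, an atypical chemoattractant receptor, at 4.499 to 6.07 CPM in CCl4 libraries and 2.76, 1.15 and 1.204 CPM in controls. The lower one was Rcn3, a calcium-binding protein of the endoplasmic reticulum, at 6.43 to 9.24 CPM in CCl4 libraries and 117, 45.1 and 11.1 CPM in controls. Without controls 2 and 3, a single control stands for the control group. In the 8 libraries the slope of the score is largely set by spleen Tconv controls 2 and 3. In the 16 and 32 libraries spleen Treg controls 2 and 3, with their low scores, also shape that slope, which all groups share. The loss of calls in these fits therefore does not show that the genes were equal. All 112 higher genes kept a positive and all 71 lower genes a negative log2 fold change without controls 2 and 3, with medians of 0.28 and -0.35. Since all 3 controls had entered the choice of these genes, that agreement is no sign of stability.

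The calls also needed each of these controls. Without control 2 no gene was called, and without control 3 only 1, a lower one, was. Without control 1, 433 were higher and 231 lower. Leaving out CCl4 library 1, 2, 3, 4 or 5 gave 116, 92, 95, 158 and 128 calls, in that order. The 8 libraries fitted alone gave none, where 2306 of 14159 genes had an unadjusted p under 0.05. DESeq2 called 446 higher and 212 lower.

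**Figure D3:**
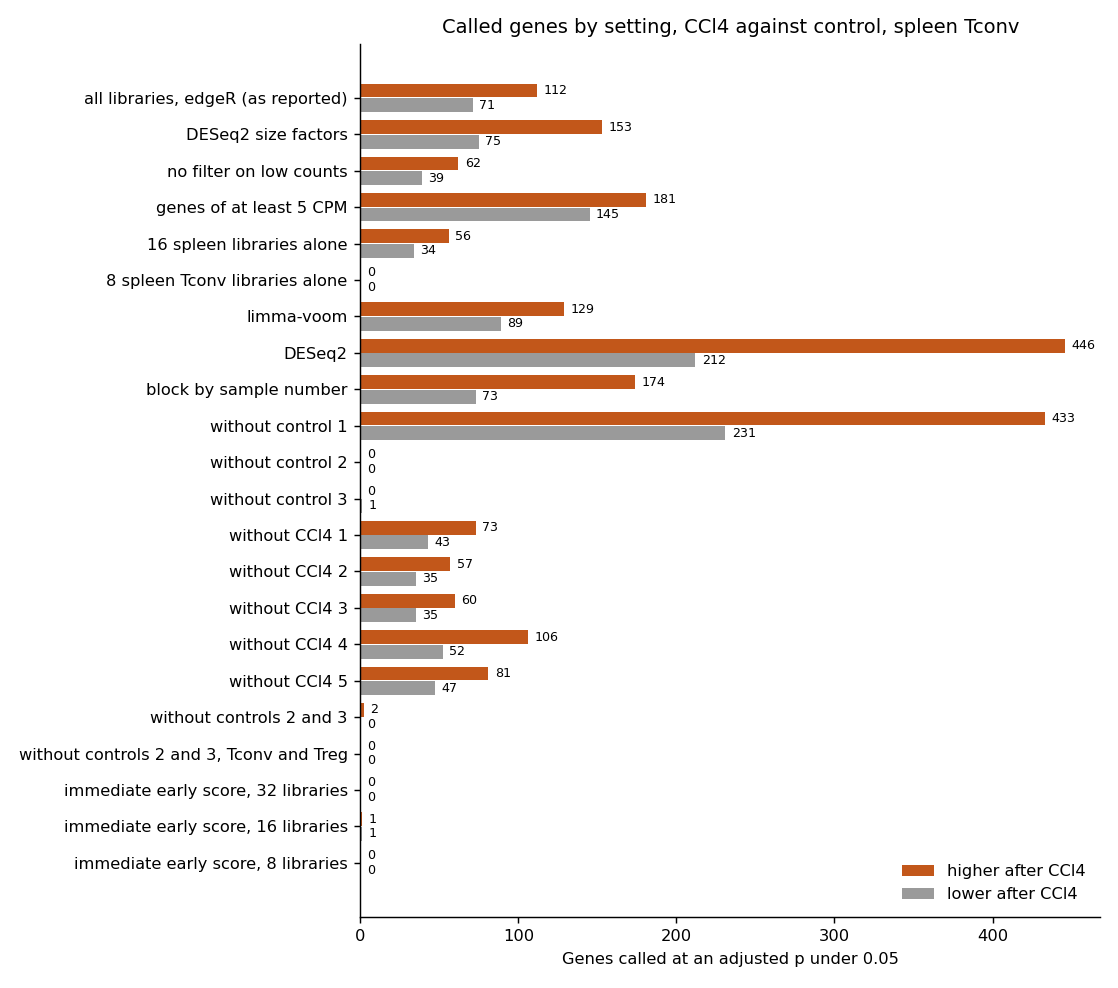
Number of genes called higher and lower after CCl4 in spleen Tconv under each setting (bars start at 0). The 183 calls with all libraries become 664 without control 1, none without control 2, and at most 2 once controls 2 and 3 are left out or the immediate early score is in the fit.

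A stricter description asked which called genes of at least 5 CPM also stood at least 1.5-fold from control 1, with control 1 on the same side of all 5 CCl4 libraries. This held for 11 higher and 3 lower genes, 14 in all, and 13 of them are named here, since a receptor segment (Trbj1-7) is treated with its family. Of all 9480 genes at that level, called or not, 47 (0.496%) had groups apart and control 1 that far away. At 1.25-fold there were 30 higher and 28 lower genes, and at 2-fold 3 higher and none lower. Just under the 1.5-fold line stood Tnfrsf4, with a log2 ratio over control 1 of 0.57.

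Among the genes that stood apart from every control, Penk, the precursor of the enkephalin opioid peptides, had the largest log2 fold change. It was at 15.5, 10.04, 15.7, 25.3 and 11.4 CPM in CCl4 libraries 1 to 5 and at 6.62, 3.71 and 4.51 CPM in controls 1 to 3. Every CCl4 library was above every control, which the rule that chose these genes required. The log2 fold change of Penk was 1.62 (SE 0.38, edgeR adjusted p = 0.0326) with all controls, 1.22 without controls 2 and 3 and 1.35 with the score as covariate. Neb encodes nebulin, a giant protein of the muscle sarcomere. It was at 6.73, 4.87, 4.66, 13.3 and 7.65 CPM in CCl4 libraries and at 1.53, 3.10 and 3.00 CPM in controls 1 to 3, so that here control 1 was the lowest library. The gap of Neb was smaller in TPM, a level divided by transcript length. Its TPM averaged 1.20 ± 0.42 after CCl4 and 0.85 ± 0.42 in controls (SD, n = 5 and 3). Myo6, a myosin motor that moves toward the minus end of actin filaments, was at 97.4, 104, 64.5, 76.6 and 66.4 CPM in CCl4 libraries and at 41.7, 37.5 and 34.2 CPM in the controls. The 3 controls of Myo6 lay close together, and its log2 fold change moved little, at 1.11 (SE 0.22, edgeR adjusted p = 0.0111) with all controls, 0.96 without controls 2 and 3 and 0.98 with the score. Ralgds, an exchange factor that links Ras to Ral, was at 38.7 to 46.8 CPM in CCl4 libraries and at 24.9, 29.6 and 32.4 CPM in the controls (log2 fold change 0.52, SE 0.12, edgeR adjusted p = 0.0346).

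Surface proteins of this group were Axl and Nt5e. Axl, a receptor tyrosine kinase that recognises dying cells through Gas6, was at 11.3 to 18.2 CPM in CCl4 libraries and at 6.65, 8.80 and 4.46 CPM in the controls. Its log2 fold change was 1.07 (SE 0.27, edgeR adjusted p = 0.0495) and 1.04 both without controls 2 and 3 and with the score. Nt5e, the ectonucleotidase CD73 that makes adenosine from AMP, was at 93.4, 99.7, 105, 127 and 77.3 CPM in CCl4 libraries and at 64.0, 61.2 and 75.3 CPM in the controls. CCl4 library 5 lay just above control 3. The log2 fold change of Nt5e was 0.59 with all controls (SE 0.14, edgeR adjusted p = 0.0293), 0.64 without controls 2 and 3 and 0.68 with the score.

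Among the rest, Cks2, a small subunit of cyclin-dependent kinases, was at 11.5 to 15.8 CPM in CCl4 libraries and at 7.99, 3.82 and 6.04 CPM in the controls (log2 fold change 1.12, SE 0.20, edgeR adjusted p = 0.00505). Gadd45g, a stress sensor that activates p38 and JNK kinases, was at 13.7 to 17.4 CPM in CCl4 libraries and at 10.2, 5.09 and 6.09 CPM in the controls. Pmaip1 encodes Noxa, a BH3-only protein that promotes apoptosis. It was at 7.88 to 10.4 CPM in CCl4 libraries and at 6.12, 3.35 and 3.67 CPM in the controls. Bcl2a1d, an antiapoptotic Bcl2 relative, was at 16.8 to 22.2 CPM in CCl4 libraries and at 12.9, 13.4 and 11.0 CPM in the controls, but its near-identical paralogues make the split of reads among them uncertain. Fosl2 was at 9.54, 10.01, 9.46, 17.7 and 10.9 CPM in CCl4 libraries and at 7.56, 4.15 and 4.99 CPM in the controls. For Cks2, Gadd45g, Pmaip1 and Fosl2 the gap to control 1 was well under that to controls 2 and 3. Their log2 ratios were 0.71, 0.63, 0.61 and 0.61 over control 1 and 1.40, 1.49, 1.41 and 1.33 over controls 2 and 3. For Bcl2a1d the ratios were closer, at 0.59 and 0.67. The log2 fold change of Fosl2 was 1.02 with all controls and 0.36 with the score as covariate.

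The lower genes of this kind were Zbtb5 and Marf1. Zbtb5, a BTB zinc finger repressor, was at 17.3, 14.2, 19.9, 20.7 and 16.9 CPM in CCl4 libraries and at 28.7, 33.3 and 32.6 CPM in controls 1 to 3 (log2 fold change -0.82, SE 0.16, edgeR adjusted p = 0.0112). Without controls 2 and 3 its log2 fold change was -0.70. Marf1, an RNA-binding nuclease first known from mouse oocytes, was at 8.25 to 14.6 CPM in CCl4 libraries and at 17.3, 19.1 and 21.2 CPM in the controls (log2 fold change -0.78, SE 0.19, edgeR adjusted p = 0.0365). All 5 CCl4 libraries lay under all 3 controls for both.

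**Figure D4:**
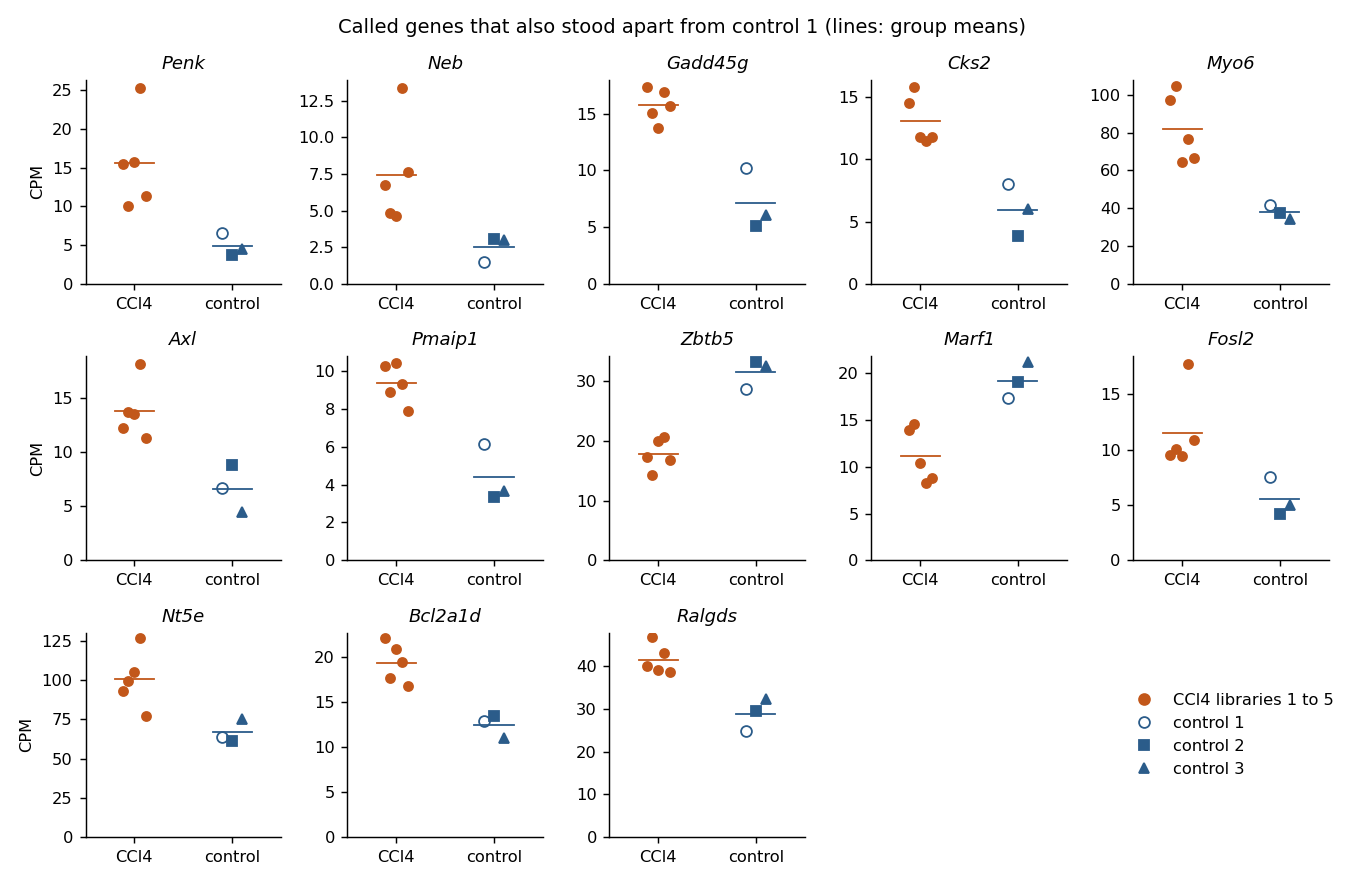
CPM of the 13 named genes that stood at least 1.5-fold from control 1, with CCl4 libraries left and controls right (1 point per library, lines at the group means). The groups do not overlap in any panel, and for Penk the CCl4 libraries lie at 10.04 to 25.3 CPM against 3.71 to 6.62 CPM in controls.

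Among the other large rises, Siah2, Trib1 and Trim13 leaned on controls 2 and 3. Siah2, a ubiquitin ligase induced under low oxygen and by calcium signals, was at 111, 121, 102, 93.5 and 128 CPM in CCl4 libraries and at 79.9, 17.2 and 18.1 CPM in controls 1 to 3. Its log2 fold change was 1.52 (SE 0.36, edgeR adjusted p = 0.0337), of which 0.48 remained over control 1. Trib1, a pseudokinase that guides ubiquitin ligases, was at 34.4 to 54.7 CPM in CCl4 libraries and at 30.8, 12.05 and 6.76 CPM in the controls (log2 fold change 1.39, SE 0.32, edgeR adjusted p = 0.0281; 0.51 over control 1). Trim13, a ubiquitin ligase of the endoplasmic reticulum, was at 20.2 to 29.0 CPM in CCl4 libraries and at 18.8, 6.17 and 6.38 CPM in the controls, and lay 0.27 above control 1 on the log2 scale. Small and even changes were also called. Mfsd1, a lysosomal transporter, was at 92.6 to 101 CPM in CCl4 libraries and at 76.1, 75.1 and 76.1 CPM in the controls. Snx20, a sorting nexin, was at 104 to 117 CPM in CCl4 libraries and at 143, 141 and 144 CPM in the controls, with adjusted p = 0.0250 for Mfsd1 and 0.0349 for Snx20 in edgeR. Those genes, and the secreted factors that follow, were chosen after their values were seen. Lif, a cytokine of the interleukin 6 family, was at 3.34, 2.58, 1.17, 3.05 and 1.14 CPM in CCl4 libraries and at 0.411, 0 and 0.359 CPM in the controls (log2 fold change 2.98, SE 0.51, edgeR adjusted p = 0.00496; 2.46 over control 1). Cxcl10, an interferon-induced chemokine, was at 4.46 to 10.1 CPM in CCl4 libraries and at 2.50, 1.26 and 1.69 CPM in the controls (log2 fold change 1.86, SE 0.37, edgeR adjusted p = 0.0125; 1.44 over control 1). For Lif and Cxcl10 the groups did not overlap. Only their means, 1.51 and 4.94 CPM over the 8 libraries, kept them out of the stricter description, which asked for 5 CPM. Tnfsf11, the ligand RANKL, was at 16.3 to 28.1 CPM in CCl4 libraries and at 17.0, 14.8 and 11.5 CPM in the controls, so that CCl4 library 2 lay under control 1.

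Among the falls, genes of zinc finger proteins recurred. Of 339 genes whose symbol begins with Zfp, 8 fell and none rose, where 0.414% of all genes tested fell, and 66.4% had a log2 fold change under 0, against 48.0% of all genes tested. The family was looked at after its members appeared among the falls. Its median log2 fold change was -0.15, and -0.07 without controls 2 and 3. Zfp719 was at 9.35, 8.90, 7.82, 7.53 and 10.7 CPM in CCl4 libraries and at 12.9, 26.8 and 28.1 CPM in controls 1 to 3 (log2 fold change -1.35, SE 0.22, edgeR adjusted p = 0.00363). Zfp748 was at 13.2 to 15.8 CPM in CCl4 libraries and at 20.04, 38.8 and 35.9 CPM in the controls. For Zfp866 the levels were 16.9 to 21.4 CPM in CCl4 libraries and 26.5, 34.8 and 35.9 CPM in the controls, and for Zfp58 they were 9.53 to 11.3 CPM and 13.3, 20.1 and 17.9 CPM. In these 4 genes control 1 lay between the CCl4 libraries and controls 2 and 3. In Zfp276 control 1 was instead the highest library, with 49.9 to 62.8 CPM in CCl4 libraries and 77.5, 75.6 and 68.3 CPM in the controls. Zfp84, Zfp688 and Zfp689 were the others. Members of this family are related in sequence, and how reads were shared among close relatives is uncertain.

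The other named falls were of varied function. Tpcn1, a cation channel of endolysosomes, was at 9.80 to 15.6 CPM in CCl4 libraries and at 16.4, 31.5 and 32.2 CPM in the controls. Vamp1, a SNARE of vesicle fusion, was at 25.8 to 30.9 CPM in CCl4 libraries and at 35.1, 65.6 and 48.0 CPM in the controls. Tent5a, a polymerase that adds adenines to transcripts, was at 27.3, 36.8, 39.7, 38.6 and 36.6 CPM in CCl4 libraries and at 47.8, 67.3 and 70.3 CPM in the controls. Rfx3, a transcription factor of ciliated cells, was at 7.09 to 10.3 CPM in CCl4 libraries and at 11.7, 12.9 and 19.6 CPM in the controls. Rdh5, a retinol dehydrogenase, was at 3.34 to 4.84 CPM in CCl4 libraries and at 5.18, 9.88 and 7.37 CPM in the controls. Control 1 was the control nearest to the CCl4 libraries for each of these genes. H2-K2, a class I sequence annotated as a transcribed pseudogene, had the smallest adjusted p of all (0.00208 in edgeR). It was at 57.9 to 78.4 CPM in CCl4 libraries and 88.8, 167 and 139 CPM in the controls. Reads shared with class I genes make its level uncertain. Of 14 joining segments of the T cell receptor beta chain, 5 fell, where 0.414% of all genes tested fell, with a median log2 fold change of -0.66 with all controls and -0.23 without controls 2 and 3. They were Trbj1-3, Trbj1-5, Trbj1-6, Trbj1-7 and Trbj2-5, at 2.54 to 7.0 CPM in CCl4 libraries and 5.52 to 11.9 CPM in controls.

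Lists of genes for T cell programmes showed few calls. Of 24 programme lists, 13 held no called gene, among them those of naive and recirculating cells, the helper lineages Th1, Th2 and Th17, follicular helper cells, type I interferon response and the cell cycle. None of the 18 naive and recirculation genes was called, and their median log2 fold change was 0.01. Ccr7, the chemokine receptor that guides entry into lymphoid zones, was at 1022 to 1153 CPM in CCl4 libraries and at 1265, 1391 and 1389 CPM in the controls. Its groups did not overlap, but the difference was not called (log2 fold change -0.28, SE 0.17, edgeR adjusted p = 0.480). None of 25 cell cycle genes was called, with a median of 0.22 that was 0.39 against control 1 alone. None of 24 type I interferon genes was called, with a median of 0.06. In the Th1 and cytotoxic list none of 18 was called, with a median of 0.30. Ifng, which encodes interferon gamma, was at 50.6, 25.7, 35.5, 44.4 and 36.3 CPM in CCl4 libraries and at 25.0, 5.66 and 3.09 CPM in the controls (log2 fold change 1.75, SE 0.57, edgeR adjusted p = 0.122).

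In the activation and coinhibition list 2 of 17 genes rose and none fell, where 0.653% of all genes tested rose, with a median log2 fold change of 0.44 that was 0.30 without controls 2 and 3 and 0.28 with the score. Tnfrsf4, the costimulatory receptor OX40, was at 38.5, 37.3, 39.6, 52.8 and 30.4 CPM in CCl4 libraries and at 26.8, 23.4 and 23.7 CPM in the controls (log2 fold change 0.69, SE 0.14, edgeR adjusted p = 0.0156). The controls agreed closely, and without controls 2 and 3 its log2 fold change was 0.56. Tnfrsf18, the related receptor GITR, was at 126 to 158 CPM in CCl4 libraries and at 114, 105 and 102 CPM in the controls (log2 fold change 0.40, SE 0.10, edgeR adjusted p = 0.0444). Cd38, an ectoenzyme of activated cells that was chosen after its values were seen, was at 5.05 to 12.1 CPM in CCl4 libraries and 3.53 to 4.51 CPM in controls, and was not called (log2 fold change 1.15, SE 0.31, edgeR adjusted p = 0.0583). Cd69, an early activation marker that is also an immediate early gene, followed the split of the controls, at 274 to 382 CPM in CCl4 libraries and 296, 115 and 118 CPM in controls. Tnfrsf18 and Nt5e were also the 2 of 14 genes of the Treg list that rose, while Foxp3 was lower in CCl4 libraries without a call.

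Other lists held 1 to 3 calls. Of 25 glucocorticoid and clock genes 3 rose, with a median log2 fold change of 0.29. Here and in the lists that follow, 0.653% of all genes tested rose and 0.414% fell. Per1, a core repressor of the circadian clock and a glucocorticoid target, was at 15.5 to 23.3 CPM in CCl4 libraries and at 13.9, 6.67 and 8.61 CPM in the controls (log2 fold change 0.96, SE 0.19, edgeR adjusted p = 0.0135). Cdkn1a, the cell cycle inhibitor p21, was at 3.25 to 7.45 CPM in CCl4 libraries and at 1.78, 0.866 and 1.49 CPM in the controls. Its log2 fold change was 1.73 with all controls (SE 0.37, edgeR adjusted p = 0.0225), 1.41 without controls 2 and 3 and 0.88 with the score. Klf9, a Krueppel-like factor induced by glucocorticoids, was at 6.07 to 10.2 CPM in CCl4 libraries and at 7.18, 2.16 and 2.82 CPM in the controls, and the groups overlapped. Of 21 apoptosis and survival genes 3 rose, Pmaip1 and Bcl2a1d as above and Mcl1, an antiapoptotic Bcl2 relative. Mcl1 was at 794 to 922 CPM in CCl4 libraries and at 805, 547 and 546 CPM in the controls, so that control 1 lay inside the CCl4 range. Of 27 cytokine receptor and STAT genes 1 rose, Ifngr1, the binding chain of the interferon gamma receptor. It was at 288, 266, 205, 213 and 225 CPM in CCl4 libraries and at 186, 157 and 173 CPM in the controls (log2 fold change 0.48, SE 0.08, edgeR adjusted p = 0.00505). Without controls 2 and 3 the log2 fold change of Ifngr1 was 0.36, and with the score 0.45.

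Hspa5, the endoplasmic reticulum chaperone BiP, was the 1 gene called in both the heat shock list (14 genes) and the unfolded protein list (17 genes). It was at 1276 to 1378 CPM in CCl4 libraries and at 1246, 749.8 and 643 CPM in the controls (log2 fold change 0.59, SE 0.13, edgeR adjusted p = 0.0281), and lay 0.09 above control 1. Pgam1, a glycolytic mutase, was the 1 of 20 glycolysis and hypoxia genes called, at 103 to 131 CPM in CCl4 libraries and 90.0, 89.1 and 95.8 CPM in controls. Nfkbie, an inhibitor of NF-kB, was the 1 of 16 NF-kB genes called and it fell, with 51.4 to 56.2 CPM in CCl4 libraries and 66.4, 67.4 and 75.6 CPM in controls (log2 fold change -0.40, SE 0.09, edgeR adjusted p = 0.0228). In the same list Nfkbia, the classical inhibitor and an immediate early gene, was at 742 to 849.6 CPM in CCl4 libraries and 688, 317 and 317 CPM in controls, and was not called. Of 24 clustered histone genes 2 fell, where 0.414% of all genes tested fell, and none rose, with a median log2 fold change of -0.60 that was -0.22 without controls 2 and 3. Hist1h1e, a linker histone, was at 7.05, 4.52, 4.56, 5.05 and 7.78 CPM in CCl4 libraries and at 8.04, 13.4 and 13.1 CPM in the controls (log2 fold change -0.99, SE 0.19, edgeR adjusted p = 0.00896). Hist1h2ac was at 0.650 to 1.31 CPM in CCl4 libraries and at 1.25, 4.33 and 2.98 CPM in the controls. Most transcripts of clustered histone genes lack a poly(A) tail, and the part of this in their measured level was not tested.

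**Figure D5:**
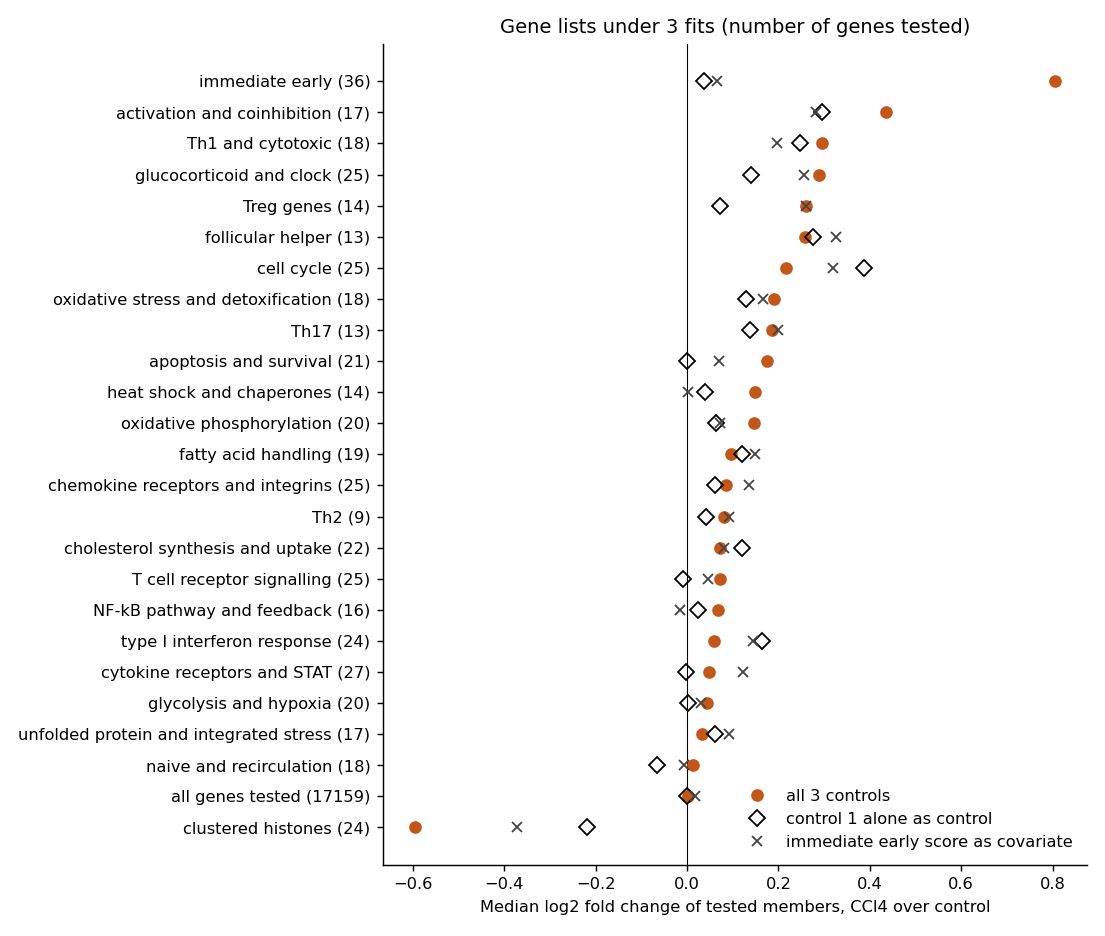
Median log2 fold change (CCl4 over control) of the tested members of each of 24 programme lists and of all genes tested, with all 3 controls (filled circles), with control 1 as the only control (open diamonds) and with the immediate early score as covariate (crosses). The immediate early list moves from 0.81 to 0.04 and 0.06, while the activation and coinhibition list lies at 0.44, 0.30 and 0.28.

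Transcripts of other spleen cells also differed between the libraries. Plasma cell markers summed to 135.9 to 299 CPM in CCl4 and 122 to 146 CPM in control libraries. Xbp1, which T cells also express, gave 99.6 to 123 CPM and 98.8 to 105 CPM of these sums. Igkc, the kappa light chain constant gene of B lineage cells, was called higher (1 of 9 plasma markers tested). It was at 42.7, 58.3, 32.4, 35.6 and 5.90 CPM in CCl4 libraries 1 to 5 and at 6.75, 6.46 and 1.78 CPM in controls 1 to 3. CCl4 library 5 lay within the control range and the other 4 lay above it, with an exact two-sided permutation p of 0.0893 and an edgeR adjusted p of 0.0457 (log2 fold change 2.83, SE 0.71). Jchain, which joins secreted antibodies, was at 13.2, 18.6, 7.54, 12.9 and 0.936 CPM in CCl4 libraries and at 2.74, 1.73 and 1.06 CPM in controls. Igha, an antibody heavy chain gene, was at 48.4, 79.8, 11.25, 8.36 and 1.17 CPM in CCl4 libraries 1 to 5 and at 5.555, 1.05 and 0.485 CPM in controls 1 to 3. All 9 plasma markers tested had a log2 fold change above 0, with a median of 1.78, or 1.95 without controls 2 and 3. The groups overlapped for each of the 9. Tnfrsf17 of the same list was near the floor, at 0 CPM in 3 of the 5 CCl4 libraries and in all 3 controls. B cell markers summed to 829 to 1004 CPM in CCl4 and 968 to 1022 CPM in control libraries, and 0 of 15 were called. Myeloid and granulocyte markers summed to 225 to 271 CPM in CCl4 and 192 to 206 CPM in control libraries, mostly Ctss, with 0 of 22 called. Of the 22, 18 had a log2 fold change above 0, with a median of 0.89, or 1.11 without controls 2 and 3. The groups did not overlap for 4 of them, where 8.82% of all genes tested did not. Among these were C1qa, at 1.02 to 3.11 CPM in CCl4 and 0.292 to 0.938 CPM in control libraries, and Csf1r, at 5.36 to 10.01 CPM and 2.23 to 4.22 CPM. Elane was at 0 CPM throughout. NK and NKT-like markers summed to 262 to 441 CPM in CCl4 and 241 to 244 CPM in control libraries, with 0 of 9 called, 3 of 9 above 0 and a median log2 fold change of -0.17. Most of that sum was Il2rb, an interleukin 2 receptor chain that activated T cells carry too, at 229 to 407 CPM in CCl4 and 201 to 209 CPM in control libraries, while Ncr1 and Klra8 were at 0 CPM throughout. Klrd1, an NK receptor chain, was at 5.65 to 8.95 CPM in CCl4 and 7.18 to 10.9 CPM in control libraries, and Zbtb16, the NKT cell factor PLZF, at 1.71 to 3.92 CPM and 3.43 to 4.36 CPM. Klrb1c of the same list went the other way, at 1.53 to 4.62 CPM in CCl4 and 0.613 to 1.22 CPM in control libraries. The groups did not overlap for 2 of the 9, Il2rb and Klrb1c, where 8.82% of all genes tested did not. CD8 markers summed to 19.1 to 23.5 CPM in CCl4 and 25.7 to 28.8 CPM in control libraries. In bulk RNA, more cells of a type and more RNA per cell cannot be told apart, and the part of such transcripts in the calls above was not tested.

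The response in spleen Tconv was then set against that of spleen Treg, which had the same split of controls. Each has its own controls. In spleen Treg 202 genes (1.18%) were called, 130 higher (0.758%) and 72 lower (0.42%), beside 1.07% in spleen Tconv. No gene's log2 fold change differed between the cell types at an edgeR adjusted p under 0.05, while 734 of 17159 genes had an unadjusted p under 0.05 for that difference and limma-voom called none and DESeq2 15. Myo6 had the smallest p. In spleen Tconv it averaged 81.9 ± 18.2 CPM after CCl4 and 37.8 ± 3.79 CPM in controls (SD, n = 5 and 3), and in spleen Treg 17.7 ± 1.97 CPM and 25.1 ± 4.79 CPM. The difference of the log2 fold changes of Myo6 was 1.62 (SE 0.30, edgeR adjusted p = 0.136). Myo6 was the 1 gene called in a fit of the 16 spleen libraries alone, both without and with a block by treatment and number. Same-numbered spleen Tconv and Treg libraries tended to deviate together (r given below), which the fit of all 32 libraries did not use. The next 4 by p were Dusp18, Chd7, Bicd1 and Fam110a, with differences of -5.63, -0.57, -1.01 and -0.85 and edgeR adjusted p of 0.435, 0.435, 0.534 and 0.534. Dusp18, a phosphatase gene, was at 0.840 CPM or less in every spleen Tconv library, so its large difference rests on very few counts. Chd7, a chromatin remodeller, was at 169 to 181 CPM in CCl4 and at 206 to 232 CPM in control spleen Tconv libraries.

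In liver Tconv, whose controls had no such split, 56 genes (0.326%) were called after CCl4, 25 higher (0.146%) and 31 lower (0.181%). Penk was among the higher, with a log2 fold change of 2.70 (edgeR adjusted p = 0.00256). Against liver Tconv, 15 genes differed in their response to CCl4 (0.0874% of genes tested), 10 with a higher (0.0583%) and 5 with a lower (0.0291%) log2 fold change in spleen. Of the 5 with the smallest p, Ywhaz, a 14-3-3 signalling adaptor, averaged 1359 ± 38.9 CPM after CCl4 and 1096 ± 94.2 CPM in controls in spleen, and 1384 ± 31.2 CPM and 1488 ± 30.7 CPM in liver (SD, n = 5 and 3). The difference of its log2 fold changes was 0.41 (SE 0.07, edgeR adjusted p = 0.0180). Hist1h1e and Hist1h4n, both clustered histones, had differences of -1.57 and -1.53 (edgeR adjusted p = 0.0180 for each). Hist1h4n averaged 7.40 ± 1.12 CPM after CCl4 and 11.1 ± 2.20 CPM in controls in spleen, and 30.7 ± 6.24 CPM and 15.9 ± 1.92 CPM in liver. Isca1, an iron-sulphur cluster assembly factor, and Srsf6, a splicing factor, had differences of 0.57 and 0.80 (edgeR adjusted p = 0.0276 for each). Srsf6 was at 268 to 299 CPM in CCl4 and at 281, 182 and 177 CPM in control spleen libraries, so that control 1 lay inside the CCl4 range. Without control 3 no difference from liver Tconv was called, and without control 2 only those of Abcc3 and Hist1h4n were. Without both, where a single control is left, the differences of Ywhaz, Hist1h1e, Hist1h4n, Isca1 and Srsf6 lost their calls. That of Abcc3 kept its call. Over all genes, 5, 9 and 7 differences were called without CCl4 libraries 2, 3 or 4, and 220 without control 1.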

How the data were processed

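RNA sequencing libraries of T cells sorted from mouse spleen and liver were analysed, with 5 CCl4 and 3 control libraries in each of 4 populations. Per the submitters' processing notes, bcl2fastq 2.19 and kallisto 0.44.0 were used, on the build GRCm38.p6, and DESeq2 is listed too. Annotation release and strand setting were not given in the sources. Per the file headers, the deposited tables hold an estimated count and a TPM for each of 118489 transcripts. TPM is length-normalized, and the deposited TPM values, summed to genes, are given here for Neb only.

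Estimated counts were summed to genes through GENCODE M21 transcript names (98.5% matched, 35968 genes). The unmatched 1761 transcripts held 0.684% to 0.823% of a library and were left out. Sums were rounded for edgeR 4.0.16 (R 4.3.3; filterByExpr, TMM, glmQLFit, glmQLFTest). One fit of 8 groups and 32 libraries tested 17159 genes with 24 residual degrees of freedom. P-values were adjusted by Benjamini-Hochberg across every gene in the fit, with calls under 0.05. The SE was derived from the log2 fold change and its F statistic and is approximate. CPM are TMM-normalized, and the totals of 27067104 to 60777997 counts leave genes under 1 CPM imprecise. The score is the mean log2 CPM (prior count 2) of 12 genes (Fos, Fosb, Jun, Junb, Egr1, Ier2, Atf3, Dusp1, Nr4a1, Zfp36, Btg2 and Klf6). The steps were tested on simulated data.

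Alternatives were DESeq2 size factors, no filter, genes of at least 5 CPM, the 16 spleen or 8 spleen Tconv libraries alone, limma-voom (limma 3.58.1) and DESeq2 1.42.0. Others were sample number as a block, each of the 8 spleen Tconv libraries left out in turn, leaving out controls 2 and 3, and the score as covariate. The 1.25-fold and 2-fold distances and a block by treatment and number were added after seeing the data.

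Named genes are the 12 largest rises and 12 largest falls among called genes of at least 5 CPM with groups apart, without predicted genes, pseudogenes, ribosomal, mitochondrial and receptor or immunoglobulin segments. To these come called list members (at most 6 a list), up to 15 genes that stood 1.5-fold from control 1, score genes, Areg, Foxp3, Cd4 and Cd3e, and 5 genes for each difference of effects. Further genes of the text (Tnfaip3, Rgs1, Ccrl2, Rcn3, Ajuba, Rasgef1b, Jchain, Il2rb, Nfkbia, Cd69, Cd38, Ccr7, Ifng, H2-K2, the secreted factors, Snx20, Mfsd1, the Zfp and Trbj families) were chosen after their values were seen. Members and lists were chosen with earlier results of these data known. Sequences come from the RefSeq promoter table, for Fos (chosen after its values were seen) and the 4 score genes of smallest adjusted p other than Ier2 and Egr1. Python 3.11.15 with matplotlib 3.10.9 made the plots.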

Additional observations from a re-analysis of the deposited data

Results flagged for a closer look

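In 4 of 88 genes checked, 1 CCl4 library lay far from the other 4. Chance flags about 1 in 20 such groups, so this share is near what chance gives. Trim13 was at 29.0 CPM in CCl4 library 2, against 20.2 to 22.4 CPM in the others. Tent5a was at 27.3 CPM in CCl4 library 1, against 36.6 to 39.7 CPM in the others. Fosl2 was at 17.7 CPM in CCl4 library 4, against 9.46 to 10.9 CPM in the others. Rcn3 was at 6.43 CPM in CCl4 library 4, against 8.86 to 9.24 CPM in the others.

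The response to CCl4 was tested for a difference between spleen Tconv and liver Tconv. With all 3 controls in the fit it differed for 10 genes of the text other than Abcc3. These calls did not hold without controls 2 and 3, where a single control is left. With the score in 32 libraries, those of Ccrl2 and Srsf6 held and the others did not. The difference of the log2 fold changes, spleen minus liver, was 4.46 for Igkc, 4.54 for Jchain and 3.83 for Klrb1c, a receptor of NK and NKT cells, each at an edgeR adjusted p of 0.0399. Lower levels in liver after CCl4 enter these differences, with liver log2 fold changes of -1.63, -2.02 and -2.15, in that order and none called. The difference was 1.68 for Ccrl2 (adjusted p = 0.0276), 0.83 for Tmem64, a membrane protein (0.0372), 0.80 for Srsf6, 0.57 for Isca1 and 0.41 for Ywhaz. It was -1.57 for Hist1h1e and -1.53 for Hist1h4n. Klrb1c was at 1.53 to 4.62 CPM in CCl4 and 0.613 to 1.22 CPM in control spleen Tconv libraries, without overlap, and its own difference in spleen was not called (log2 fold change 1.68, SE 0.57, edgeR adjusted p = 0.141). Tmem64 and Klrb1c were chosen after their values were seen.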

How the results depend on the processing

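The number of genes called moved widely, and the cause was not tested beyond what each setting changes. Beside 183 calls (112 higher, 71 lower), edgeR called 101 (62 and 39) with no filter on low counts, 326 (181 and 145) among genes of at least 5 CPM, 90 (56 and 34) in the 16 spleen libraries and 0 (0 and 0) in the 8 libraries alone. DESeq2 called 658 (446 and 212), all 183 among them, while limma-voom called 218 and DESeq2 size factors in edgeR gave 228, with 143 and 181 of the 183 shared. Leaving out 1 spleen Tconv library gave 0 to 664 calls, 0 to 433 higher and 0 to 231 lower. Without controls 2 and 3 there were 2 (2 and 0), and without these and the spleen Treg controls 2 and 3 there were 0. With the score there were 0 in 32 libraries, 2 (1 and 1) in 16 and 0 in 8. None of the 57 named called genes changed sign in any of these settings. A group with 1 control left is assumed to vary like the other groups.

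Same-numbered CCl4 and control libraries did not deviate together (r = -0.022, -0.063 and -0.076), so the numbers do not pair them. Same-numbered spleen Tconv and Treg libraries had r of 0.480, 0.264 and 0.207 in controls and 0.066, 0.277, 0.128, 0.375 and 0.302 after CCl4. Each correlated best with its own number, which is a hint from the data and not the design. With the number as a replicate block edgeR called 247 genes (174 higher and 73 lower), 150 of the 183 among them.

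Immediate early genes, not called in any direction, changed sign. Controls 2 and 3 were set apart by such genes and the score is made of them, so a shift in these settings is built in. The log2 fold change without controls 2 and 3 was -0.056 for Fos, -0.20 for Jun, -0.039 for Junb, -0.023 for Egr1, -0.50 for Atf3, -0.063 for Dusp1 and -0.036 for Btg2. Without the Treg controls 2 and 3 as well it was -0.052, -0.19, -0.034, -0.019, -0.49, -0.059 and -0.031 for the same genes. With the score in 32 libraries it was -0.17 for Jun, -0.83 for Atf3, -0.29 for Zfp36 and -0.15 for Btg2. In 16 libraries it was -0.0066 for Fos, -0.17 for Jun, -1.004 for Atf3, -0.27 for Zfp36, -0.11 for Btg2 and -0.053 for Ppp1r15a. In 8 libraries it was -0.12 for Jun, -0.63 for Atf3 and -0.013 for Btg2. Leaving out 1 spleen Tconv library gave -0.0099 (without control 2) to 1.42 (without control 1) for Atf3.

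For the difference from spleen Treg, 1 gene was called in the 16 spleen libraries (Myo6), 15 by DESeq2, 1 without controls 2 and 3 (Dusp18), 1 with the score in 16 libraries (Myo6) and 1 with a replicate block by treatment and number (Myo6), with 0 to 2 when 1 library was left out. For the difference from liver Tconv, DESeq2 called 160, there were 4 without controls 2 and 3, 5 without the Treg controls 2 and 3 as well and 4 with the score in 32 libraries, with 0 to 220 when 1 library was left out. Only spleen Tconv libraries were left out in turn, and no Treg or liver library. The rule on distance from control 1 gave 58 genes at 1.25-fold and 3 at 2-fold. Depth limits genes under 1 CPM most.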

Other observations

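Over all 62 clustered histone genes tested, a group chosen after the values were seen, 3 fell and none rose in spleen Tconv, with a median log2 fold change of -0.66. The median was -0.25 without controls 2 and 3 and -0.44 with the immediate early score as covariate. In liver Tconv the 24 histone genes listed had a median of 0.58, against -0.60 in spleen Tconv and -0.72 in spleen Treg.

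Of the 3 spleen Tconv controls, Rcn3 spread over 11.1 to 117 CPM, with control 1 the highest and control 3 the lowest. Its log2 fold change of -2.76 was not called with all libraries (edgeR adjusted p = 0.0533). Tmem64 was at a higher level after CCl4 in spleen Tconv, with a log2 fold change of 0.65 (SE 0.12, edgeR adjusted p = 0.00728), 0.44 without controls 2 and 3.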
